A study of Mus musculus with 6 samples.

Results

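The comparison described here sets side population cells of GHCre mice against those of control mice after 3 days of diphtheria toxin. It rests on 4 of the 6 arrays of the series, 2 in each group, chosen by their titles. The cells were sorted from the anterior pituitary of female mice by their efflux of the dye Hoechst33342, and cells with a high level of Sca1 were left out. Control mice were -/iDTR, so they carried the inducible diphtheria toxin receptor without a Cre driver, and the other group was GHCre/iDTR. Both groups received toxin for 3 days, in 2 daily doses of 4 ng per g of mouse, so the toxin itself is shared by the groups compared. Per the labels, each sort yielded between 25000 and 50000 cells, of whose RNA 1 ng went into amplification. The labels call the samples of a group independent. How many mice went into each sort is not given in the sources used here, and p-values therefore measure only the spread between these samples. The remaining arrays, 1 control and 1 GHCre, come from mice treated for 10 days.

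In this model Cre acts where the growth hormone promoter is active, and the toxin then kills cells in which recombination has switched on the receptor. The side population is a small fraction of the gland in which stem cells of the pituitary are enriched, and it also holds other cells that pump out the dye. The comparison asks how RNA in this fraction differs while growth hormone cells are being lost. In a sorted bulk sample, fewer cells of a type and less RNA per cell cannot be told apart. Interferons act through STAT and interferon regulatory factors on short response elements in promoters, and inflammatory cytokines act largely through NF-kB sites.

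Promoters of 3 genes that were higher in GHCre mice show such elements. They are the 250 bases before the gene start in the RefSeq table for GRCm38.p6, 5′ to 3′ on the gene's strand, and were picked after the values were seen. Capitals mark matches to TTTCNNTTT, the core of the interferon-stimulated response element, in Oasl1 (chr5:114922990-114923239, plus strand) and Cxcl10 (chr5:92348890-92349139, minus strand). In Il6 (chr5:30012864-30013113, plus strand) they mark GGGANNTTC, the core of an NF-kB site.
Oasl1: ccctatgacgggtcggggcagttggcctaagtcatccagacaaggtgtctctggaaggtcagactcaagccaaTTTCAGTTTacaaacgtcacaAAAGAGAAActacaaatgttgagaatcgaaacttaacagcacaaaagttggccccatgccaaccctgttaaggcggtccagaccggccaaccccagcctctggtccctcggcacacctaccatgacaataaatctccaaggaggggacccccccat
Cxcl10: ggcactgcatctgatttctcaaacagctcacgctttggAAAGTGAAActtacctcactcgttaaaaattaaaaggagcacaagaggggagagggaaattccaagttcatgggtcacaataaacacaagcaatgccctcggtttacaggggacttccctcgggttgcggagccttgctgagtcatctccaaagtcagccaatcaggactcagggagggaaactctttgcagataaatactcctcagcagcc
Il6: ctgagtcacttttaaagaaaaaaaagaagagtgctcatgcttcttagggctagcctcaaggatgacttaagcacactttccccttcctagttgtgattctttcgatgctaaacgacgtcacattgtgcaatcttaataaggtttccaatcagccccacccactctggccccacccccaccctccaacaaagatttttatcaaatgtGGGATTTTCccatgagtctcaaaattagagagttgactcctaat
On either strand, TTTCNNTTT stood in 9.37% of all 32851 promoters of this length, in 7.64% of those of genes higher in GHCre mice, in 7.36% of those of lower genes and in 7.47% of those of the remaining tested genes. GGGANNTTC stood in 3.23%, 3.21%, 2.93% and 2.89% of these classes. The AP-1 element TGANTCA stood in 6.75%, 5.22%, 5.29% and 5.03%, in the same order. Matches of different motifs may overlap each other. These shares were nearly alike across the classes, so the sequences describe single promoters and not the higher genes as a set.

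Levels are given as log2 of the signal after division by the 75th percentile of its array, so 0 is that percentile, and each gene is represented by its probe of highest mean signal. A gap is the distance between the groups, that is the smallest log2 difference between a GHCre and a control array. With limma 0 of 20923 genes or unnamed transcripts passed an adjusted p of 0.05 (0%), and the lowest adjusted p was 0.653. At an unadjusted p under 0.05 there were 1376, of which 826 were higher and 550 lower in GHCre mice. For a single gene an exact permutation of 2 against 2 arrays cannot go below p = 0.333. The genes below are therefore described by whether the groups overlap, and "higher" and "lower" mean that both GHCre values lay outside both control values, with both arrays of the brighter group above background. No gene named below passed the adjusted threshold. Where 2 pairs of values are set against each other, the controls come first, in the order of their replicate numbers.

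Both GHCre values lay above both control values for 3278 genes (15.7% of those tested) and below them for 4148 (19.8%). With a gap over 1, that is at least a doubling between the nearest arrays, 714 were higher (3.41%) and 461 lower (2.2%). A gap over 2 was seen for 188 higher and 96 lower genes, and a gap over 3 for 55 and 24. Lower genes were thus more numerous, while large gaps were more often upward. Of those with a gap over 1, 253 higher and 105 lower genes were not above background on either array of the dimmer group. Above background on all 4 arrays the numbers were closer, at 300 and 264. Around a gap of 1 lay Adprm, just inside, and Cnst, just outside, among higher genes, and Grin2b and Malat1 among lower genes. Of the higher genes 2370 were above background on all 4 arrays, and 397 were not above background on either control array. Of the lower genes the counts were 3742, and 140 that were not above background on either GHCre array.

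Among higher genes above background on all 4 arrays, the 8 of largest gap came from several systems. The control values of these 8 lay well below the 75th percentile. Oasl1, an oligoadenylate synthetase-like antiviral protein whose promoter is shown above, stood at -2.88 and -3.60 in controls and at 0.62 and 0.39 in GHCre mice. The difference was 3.75 ± 0.48 (standard error of the limma fit, adjusted p = 0.653), or 13.4-fold, and its probe lies on chromosome 5 from 115387861 to 115387920 in mm9. Il7r, the interleukin 7 receptor of lymphoid cells, was at -2.75 and -3.10 in controls and at 1.87 and 0.49 in GHCre mice, 17.2-fold higher. All of these GHCre values lay above the 75th percentile of their array, and all control values lay below it.

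Transcription factors stood among them. Egr4, an immediate early zinc finger factor, was at -1.83 and -3.13 in controls and at 1.22 and 2.08 in GHCre mice (4.13 ± 0.68, 17.5-fold). Foxl1, a forkhead factor of mesenchymal cells, was at -2.45 and -3.23 against 0.63 and 0.64 (3.47 ± 0.48). The GHCre arrays lay close together for Foxl1 and further apart for Egr4, and in both genes the groups stood clear of each other, with gaps of 3.08 and 3.05.

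Hp, haptoglobin, an acute phase protein that binds free hemoglobin, was at -2.52 and -2.39 in controls and at 0.54 and 0.57 in GHCre mice, 8.07-fold higher (3.01 ± 0.40). Pla1a, a phospholipase, was 9.98-fold higher, the protein kinase Prkx 8.78-fold higher and Iqck, a calmodulin-binding motif protein, 14-fold higher. Over these 8 genes the gap ran from 2.77 for Prkx to 3.53 for Iqck. Only Iqck and Prkx among them had another probe, and it had a higher mean too, by 0.48 and 0.82.

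**Figure D1:**
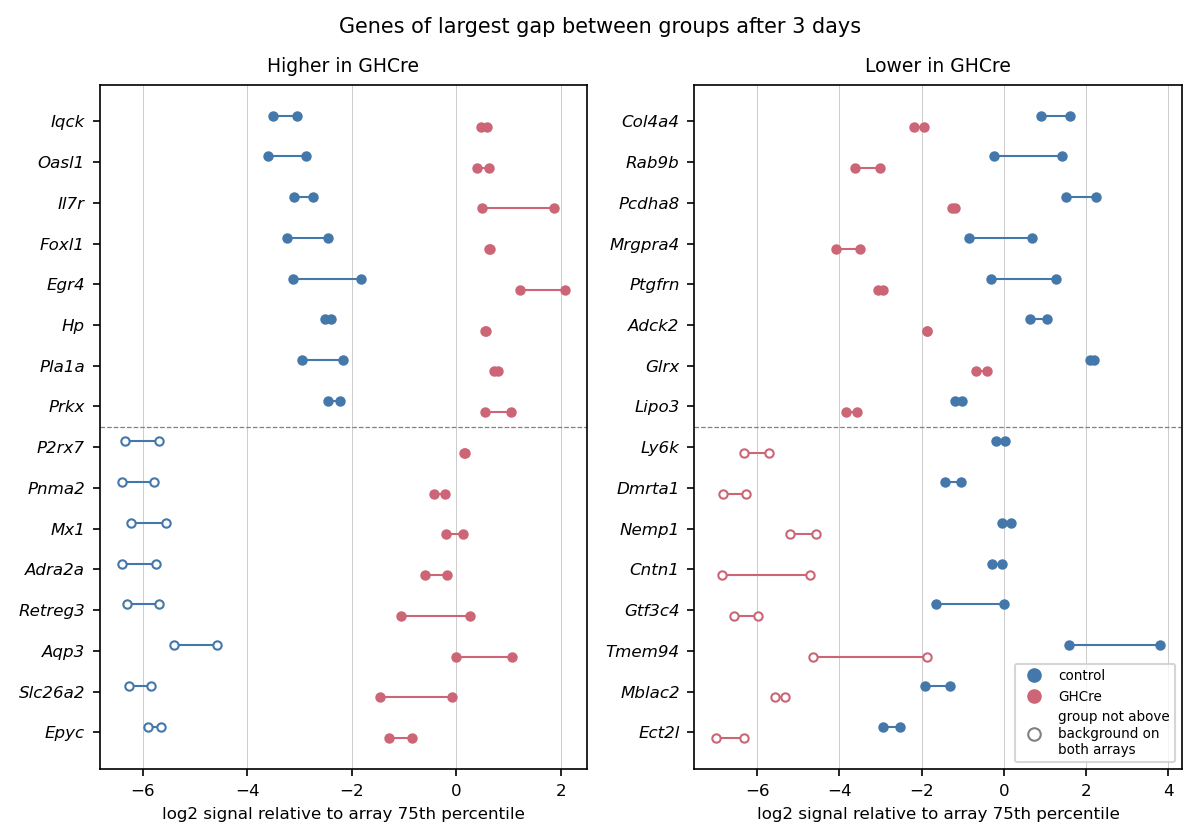
Level, as log2 signal over the 75th percentile of each array, of the genes of largest gap that were higher (left) and lower (right) in GHCre mice after 3 days, each point 1 array, blue for control and red for GHCre. Above the dashed line stand the 8 genes of largest gap among those above background on all 4 arrays and below it others of largest gap, where open points mark a group that was not above background on both arrays. The gap for Oasl1 is 3.27 and for Col4a4 2.85.

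Among the named higher genes the largest gaps belonged mostly to genes whose control arrays were at background, and for these only a lower bound on the fold can be given. P2rx7, an ATP-gated channel of immune cells, was at -5.68 and -6.33 in controls and at 0.16 and 0.15 in GHCre mice. That is a difference of at least 16.6-fold, and its other probe differed by 4.28. Aqp3, a water and glycerol channel, was at least 21.5-fold higher and Retsat, a retinol saturase, at least 16.9-fold. Ifnlr1, a receptor chain for type III interferons, was at -5.67 and -4.25 against -0.23 and 0.17, at least 14.6-fold higher. None of the control arrays of these genes was above background. Mx1, an antiviral GTPase, was at least 14.5-fold higher and Adra2a, an adrenergic receptor that inhibits adenylyl cyclase, at least 11.4-fold.

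Others of these genes have unrelated roles. Epyc, a small leucine-rich proteoglycan of cartilage, was at least 7.13-fold higher, and Slc26a2, a sulfate transporter that cartilage matrix needs, at least 8.74-fold. Ncaph, a condensin subunit of mitotic chromosomes, was at least 12.2-fold higher, while of 26 genes of DNA replication and mitosis 2 were higher and 2 lower. The endoplasmic reticulum protein Retreg3 was at least 11.3-fold higher. Foxj1, the master factor of motile cilia, was at -5.89 and -6.43 in controls and at -1.44 and -1.80 in GHCre mice, a difference of at least 4.85-fold. Zkscan6, a zinc finger protein, had 1 control array above background and differed by 4.56 ± 0.47. Pnma2 and Nupl2 had large gaps of 5.36 and 4.13, but their other probes had a median difference of -0.69 and -0.95.

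Lower genes above background on all 4 arrays included matrix, adhesion and redox genes. Glrx, glutaredoxin, which reduces glutathionylated proteins, was at 2.09 and 2.19 in controls and at -0.42 and -0.69 in GHCre mice, 6.46-fold lower (-2.69 ± 0.41, adjusted p = 0.653 with limma, chromosome 13 from 75986983 to 75987042 in mm9). Adck2, a mitochondrial kinase-like protein, was at 0.63 and 1.05 against -1.87 and -1.87. Pcdha8, a clustered protocadherin of neurons, was at 2.25 and 1.5 against -1.26 and -1.18, and Ptgfrn, a tetraspanin partner, at 1.26 and -0.31 against -3.05 and -2.93. In each the GHCre arrays lay close together and far below both controls.

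Col4a4, a basement membrane collagen chain, was at 1.60 and 0.90 against -2.18 and -1.95, while its 2 other probes had a median difference of 0.50. Rab9b, a small GTPase of endosomal transport, was 14.9-fold lower, the sensory receptor Mrgpra4 13-fold and the lipase family member Lipo3 6.08-fold.

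The largest gap of all, 6.89, was that of a lower transcript with only a clone name, A730080H06Rik, singled out after its values were seen. Among lower genes with GHCre arrays at background, Ly6k, a member of the Ly6 family of surface proteins, was at -0.19 and 0.03 in controls and at -5.71 and -6.32 in GHCre mice, a difference of at least 19.1-fold. Cntn1, an axonal adhesion protein, was at -0.05 and -0.28 against -6.85 and -4.72, at least 18.0-fold lower. Gtf3c4, a subunit of transcription factor IIIC, was at least 11.4-fold lower, Scai, a repressor of serum response factor cofactors, at least 8.82-fold, and the DMRT family factor Dmrta1 at least 8.51-fold. Nemp1, a nuclear envelope protein, was at least 20.6-fold lower, with its other probe at 1.91. Tmem94, with 1 of its GHCre arrays above background, was at 1.57 and 3.79 in controls and at -1.86 and -4.65 in GHCre mice (-5.94 ± 1.32), so its replicates lay far apart in both groups.

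Several immune gene families held a larger share of higher genes than all genes did, but not every one. Interleukin receptors had 5 of 28 higher and 3 lower, and TRIM proteins 9 of 51 higher and 10 lower. The families below were read against the 15.7% higher and 19.8% lower of all genes and a median difference of -0.04 over all genes, which became -0.15 with normexp background correction and the 75th percentile. Of 18 interferon regulatory factors and STATs, the transcription factors of interferon and cytokine signalling, 12 were higher (66.7%) and 1 lower, with a median difference of 0.88. Irf8, a factor of myeloid and lymphoid cells, was at -0.82 and 0.43 in controls and at 1.79 and 1.98 in GHCre mice (2.08 ± 0.59). Irf7, the amplifier of the type I interferon response, was at -0.08 and -0.18 against 1.06 and 0.61, and Stat5a, which serves cytokine and hormone receptors, at 0.14 and -0.41 against 1.14 and 0.96. In each of the 3 genes the groups did not overlap.

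GTPases and nuclear sensors induced by interferon followed. Of 18 guanylate binding proteins and immunity-related GTPases, which attack intracellular pathogens, 7 were higher and 1 lower (median 0.93). Irgm2 was at 1.47 and -0.07 in controls and at 3.02 and 2.52 in GHCre mice, and Gbp8, with controls at background, was at least 2.19-fold higher. Of 17 Schlafen and Ifi200 family genes 7 were higher and 1 lower (median 0.80), among them Mndal at -1.95 and -1.64 against 1.23 and -0.73. Members of these families resemble each other in sequence, so single members are uncertain.

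GIMAP GTPases, which regulate lymphocyte survival, were added as a list after the values were seen. Of 7 tested 6 were higher and none lower (median 1.21). Gimap4 was at 1.14 and 0.06 in controls and at 3.57 and 4.31 in GHCre mice, 10.2-fold higher (3.34 ± 0.61), and its 2 other probes were higher too, with a median of 1.62. Gimap8 was at 1.30 and 2.14 against 3.91 and 3.38. Gimap4, Gimap6, Gimap8 and Gimap9 lie next to each other on chromosome 6.

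Secreted signals of inflammation were mixed. Of 26 chemokine ligands, which attract leukocytes, 11 were higher (42.3%), 1 was lower and 14 overlapped or were dim, with a median of 0.53. Ccl8, a monocyte chemokine, was at -3.64 and -4.12 in controls and at -0.34 and -0.53 in GHCre mice, a gap of 3.11 with both control arrays at background. Ccl11, eotaxin, was at 0.49 and 0.10 against 3.08 and 2.22 (2.36 ± 0.52). Cxcl10, an interferon-induced chemokine whose promoter is shown above, was at 2.17 and 0.96 against 4.39 and 3.16, while its other probe differed by -0.95.

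Of 14 chemokine receptors 7 were higher and 1 lower (median 1.28). These 14 of 23 listed genes passed the filter on dim genes, and 6 were above background on all 4 arrays. The higher count was 5 with normexp and the 75th percentile, where 2 were lower, and 5 with the mean of all probes. Ccr7, which guides lymphocytes and dendritic cells, was at least 5.61-fold higher, the scavenger receptor Ackr3 at least 2.22-fold, and Ccrl2, which binds chemerin, was at -3.87 and -2.56 against -0.17 and -0.07. Of 14 interleukins 5 were higher and 3 lower. Their median of 0.01 turned negative with normexp and either scaling and with the mean of all probes. Il6, the main inducer of the acute phase response and the third promoter shown, was at 1.66 and 1.59 in controls and at 4.22 and 4.36 in GHCre mice (2.67 ± 0.40, 6.35-fold). Il11, a cytokine of the same family, was at -3.02 and -4.46 against -0.12 and -0.50.

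Acute phase proteins, which the liver releases under IL6, had 9 of 14 tested members higher and 2 lower, with a median of 1.78. These 14 of 24 listed genes passed the filter on dim genes, and 7 were above background on all 4 arrays. Members with controls at background can pass this filter through the GHCre arrays, so the share and the median are not free of it. Besides Hp, Orm2, an orosomucoid, was at least 9.85-fold higher, Itih3, an inter-alpha-trypsin inhibitor chain, at least 6.25-fold and Saa2, serum amyloid A, at least 4.57-fold, each with controls at background. Saa1, a close paralog of Saa2 that is hard to tell from it, was lower, at 1.51 and 1.62 in controls and at 1.11 and 1.24 in GHCre mice, and Apcs, serum amyloid P, was lower by -0.73 ± 0.44. The members thus did not share 1 direction, and after 10 days the median of the list was -0.68.

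Of 30 complement and coagulation genes 9 were higher and 1 lower (median 0.47). After 10 days the median of these 30 was -0.41, and 11 had a difference above 0. C4b, the precursor of complement C4, was at -3.98 and -1.65 in controls and at 0.99 and 1.41 in GHCre mice (4.02 ± 0.92). Cfb, factor B of the alternative pathway, was at -1.57 and -3.10 against 0.73 and 1.78 (3.59 ± 0.76), and C1qc, a chain of C1q, was at least 5.84-fold higher. Its partner chain C1qb overlapped, at -1.11 and -1.53 against -1.41 and -1.75, and C1qa was not above background. Plaur, the urokinase receptor, was at -5.86 and -0.36 against 0.97 and 0.64, so 1 control array set most of its mean difference of 3.92.

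The KLF and EGR families of transcription factors held a larger share of higher genes than all genes did. Of 19 KLF and EGR zinc finger factors 10 were higher (52.6%) and none lower, with a median of 0.60. Egr3, an immediate early factor, was at -1.79 and -2.05 in controls and at 0.76 and 0.57 in GHCre mice (2.59 ± 0.41, 6.01-fold). Egr2 was at 3.38 and 3.28 against 5.06 and 4.48, and Klf3 at -2.55 and -1.47 against -0.11 and 0.20.

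Of 22 glucocorticoid-induced genes 10 were higher and none lower (median 0.48). Per1, a clock gene that glucocorticoids induce, was at 2.22 and 1.93 in controls and at 2.94 and 2.93 in GHCre mice, and Mt2, a metal-binding metallothionein, at 7.2 and 6.81 against 8.26 and 7.69. Angptl4, an inhibitor of lipoprotein lipase, was at 2.68 and 1.16 against 3.22 and 3.76. Of 20 circadian clock genes 10 were higher and 1 lower (median 0.61), Per1 among them again. Ciart, a repressor of the clock, was at -2.97 and -3.76 in controls and at -1.35 and -0.86 in GHCre mice (2.26 ± 0.51), and Csnk1e, a kinase that marks PER proteins for decay, at 1.52 and 1.26 against 2.68 and 2.44.

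Of 22 genes of amino acid metabolism and the integrated stress response 10 were higher and 4 lower (median 0.35). Ppp1r15a, which restarts translation after stress, was at 1.90 and 1.88 in controls and at 2.79 and 2.57 in GHCre mice. Shmt2, a mitochondrial enzyme of serine and glycine metabolism, was lower, at 1.13 and 1.07 against -0.22 and 0.02 (-1.20 ± 0.40), while Mthfd2, its neighbour in mitochondrial folate metabolism, was higher by 1.35 ± 0.58. Of 29 actin cytoskeleton and contractile genes 13 were higher and none lower (median 0.37). With normexp 3 were lower under the 75th percentile and 1 under quantile scaling. With the mean of all probes 11 were higher. Des, the muscle intermediate filament desmin, was at -2.16 and -1.40 against 0.09 and 0.44, and Tagln, a marker of smooth muscle, at 2.73 and 3.38 against 4.60 and 4.00.

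All 13 mitochondrially encoded protein genes, the mRNAs that mitochondria transcribe for their own respiratory chain, were lower in GHCre mice (100% against 19.8% of all genes). The median difference was small, at -0.42, and the list was set up after this was noticed. CYTB, cytochrome b, was at 6.36 and 6.46 in controls and at 6.08 and 6.06 in GHCre mice. ND4, a subunit of complex I, was at 7.01 and 7.38 against 6.76 and 6.66, and COX1, of complex IV, at 4.96 and 4.87 against 4.63 and 4.41. The closest call was ND6, with 5.85 on its lower control and its higher GHCre array to 2 decimals. The genes come from shared transcripts and are not independent.

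Scaling bears on this result. The number of these 13 genes without overlap was 7 with quantile normalization, 8 and 9 with normexp and the 2 scalings and 10 in the deposited series table, and none was higher in any of these. The median under them was between -0.27 and -0.30. After 10 days, on arrays that the 3 day calls did not use, all 13 were lower in the GHCre array as well, with a median of -0.66. The arrays of 10 days lie on different slides, so genotype cannot be told apart from slide in that pair. The 12 of them whose probe the files place on chromosome M lie from 2898 to 15158 in mm9, and the files place the probe of ND3 on chromosome 1. For ND3 the nuclear copy and the mitochondrial gene cannot be told apart.

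Cytosolic ribosomal protein genes were lower for 47 of 80 members and higher for 1 (median -0.22). Rpl14 was at 5.50 and 5.15 in controls and at 4.73 and 4.79 in GHCre mice, and Rpl41 at 7.95 and 7.93 against 7.42 and 7.61. The groups of these genes lay close together, and the count depended on the scaling, with 18 lower and 10 higher after quantile normalization (median -0.09) and 25 lower and 10 higher in the series table. After 10 days their median was 0.12. Among all genes in the brightest quintile by mean signal, 34.2% were lower and 16.4% higher, with a median difference of -0.14, and both lists hold bright genes.

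**Figure D2:**
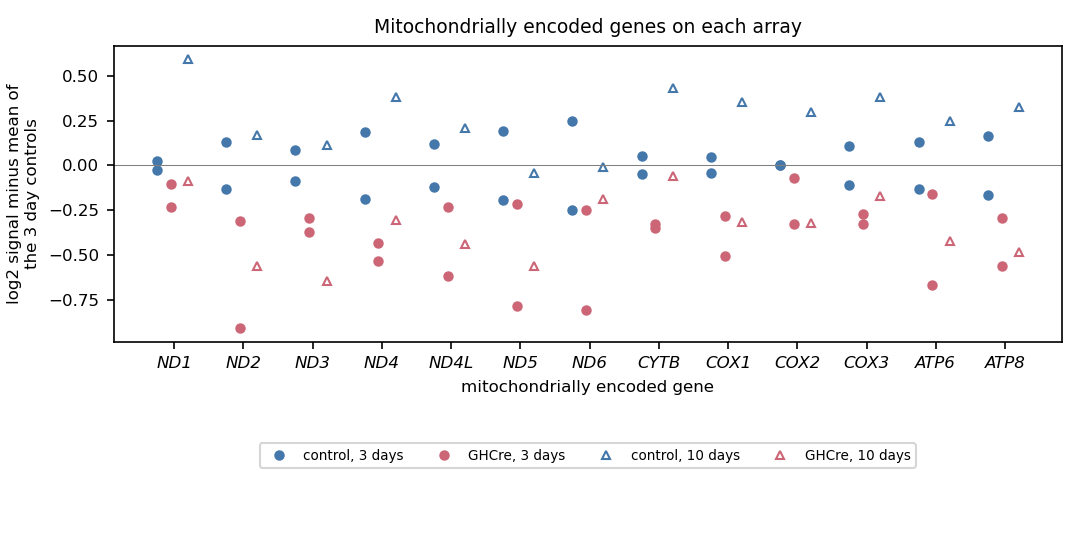
Log2 signal of the 13 mitochondrially encoded protein genes on each array, drawn relative to the mean of the 2 controls of 3 days, with filled circles for 3 days, open triangles for 10 days, blue for control and red for GHCre. In each gene the GHCre circles lie below or, for ND6, level with the lower control, and the GHCre triangle lies below the control triangle.

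Neuronal genes were mostly lower. Of 24 synaptic and neuronal genes 13 were lower (54.2%) and 1 higher, with a median of -0.69. Dlg4, the postsynaptic scaffold PSD-95, was at 1.84 and -0.50 in controls and at -1.67 and -1.68 in GHCre mice. Map2, a dendritic microtubule protein, was at 0.84 and 0.96 against -1.56 and -0.31, but of its 2 other probes 1 was higher on average. Uchl1, a deubiquitinase of neuroendocrine cells, was at -0.93 and -0.02 against -4.53 and -1.99. Stx1a, a syntaxin of vesicle release, was the higher member, with controls at background (at least 1.26-fold).

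Receptors for transmitters and ion channels, many of which endocrine cells also use, were lower more often than higher. This holds for all genes too, at 19.8% lower and 15.7% higher. Of 18 adrenergic, dopamine, serotonin and histamine receptors 7 were lower and 2 higher (median -0.62). Hrh4, a histamine receptor of blood cells, was at 0.36 and 0.27 in controls and at -0.92 and -1.12 in GHCre mice (-1.33 ± 0.40), against the large upward gap of Adra2a. Of 47 receptors for glutamate, GABA, glycine and acetylcholine 11 were lower and 4 higher (23.4% and 8.51%, median -0.33), with Gria2, an AMPA receptor subunit, lower by -1.57 ± 0.47 and Gria3, another, higher by 2.04 ± 0.66. The lower share of these 47 thus lay near that of all genes, and the higher share below it.

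Of 32 sodium and calcium channel genes 8 were lower and 1 higher (median -0.12), and of 64 potassium channel genes 14 were lower and 6 higher (median -0.19). Kcnip3, a calcium sensor that binds potassium channels, was at 1.29 and 1.97 in controls and at -1.31 and -0.44 in GHCre mice, while its other probe differed by 0.84. With replicate 2 of the controls left out, the potassium channel median was 0.10, and with GHCre replicate 1 left out it was 0.15. The lower shares of both channel lists, 25% and 21.9%, lay near the 19.8% of all genes, while 3.12% and 9.38% were higher, against 15.7%.

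Of 24 motile cilia genes 9 were lower, 14 overlapped or were dim and 1, their regulator Foxj1, was higher (median -0.38). With the mean of all probes 6 were lower and 2 higher. Wdr78, an axonemal dynein gene, was at 0.55 and 1.55 in controls and at -0.66 and -0.92 in GHCre mice (-1.84 ± 0.54), and Cfap126 was at -0.32 and 0.00 against -1.78 and -1.07, with its other probe lower by -0.91. Pifo, a gene of cilium disassembly, was at 0.91 and -1.52 against -2.83 and -2.13. The highest GHCre value of each lay below its lowest control.

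Other families had shares close to those of all genes. Of 283 solute carriers 56 were higher (19.8%) and 46 lower (16.3%), and with normexp and the 75th percentile these became 41 and 49. Of 41 proteasome subunits 9 were higher and 6 lower (median 0.00). Genes linked to the action of the toxin were also measured. The list of 18 held Hbegf, genes of diphthamide, the residue that the toxin modifies, and elongation factors. Of these 3 were higher and 5 lower (median -0.14). Hbegf, the endogenous mouse gene, was at 3.00 and 1.60 in controls and at 2.83 and 2.14 in GHCre mice. Eef2, the elongation factor that the toxin inactivates, was at 4.87 and 4.97 against 4.59 and 4.91. Both overlapped.

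Genes that make diphthamide went both ways within that list. Dph1 and Dph6 were lower, Dph6 at 1.88 and 1.99 against 1.33 and 1.21, while the other probe of Dph1 differed by 0.07. Dnajc24, a cochaperone of the same pathway, was higher, at 0.76 and -0.86 against 1.03 and 1.14, and its other probe differed by 0.88. The 4 other Dph genes were neither higher nor lower. Furin, the protease that cleaves the toxin, was higher, at 2.27 and 1.72 against 3.24 and 2.74. Eef1a1, the main elongation factor for tRNA delivery, was at 6.23 and 6.14 against 5.79 and 5.86.

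**Figure D3:**
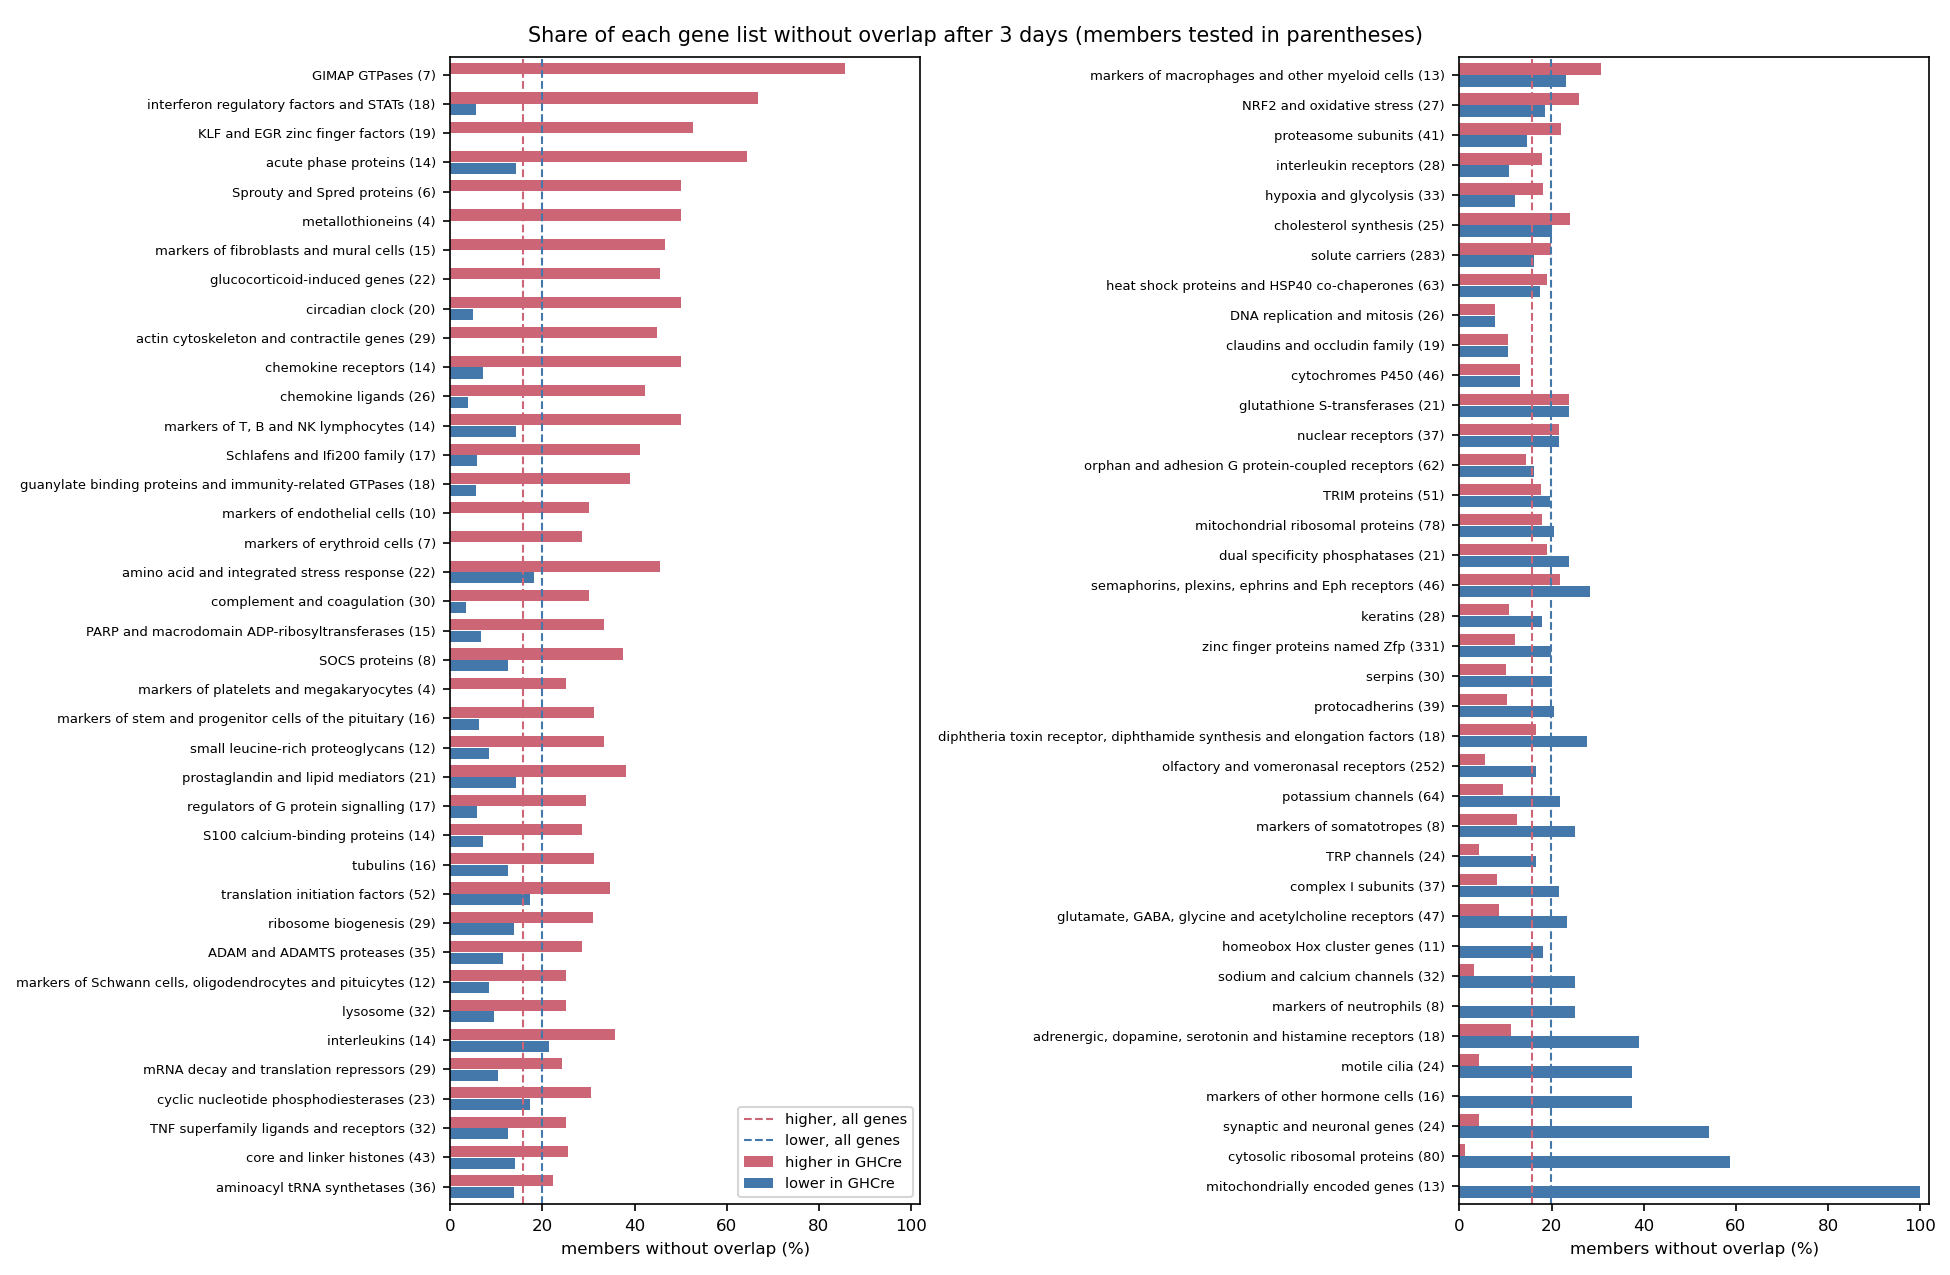
Percent of the tested members of each gene and marker list that were higher (red) or lower (blue) in GHCre mice after 3 days without overlap, ordered by the difference of the shares. Dashed lines mark the 15.7% higher and 19.8% lower among all genes. GIMAP GTPases and interferon regulatory factors stand at one end and mitochondrially encoded genes at the other. The GIMAP and mitochondrial lists were set up after the values were seen, so their places are not a result of the ranking.

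Some genes of 1 class lay in a row on a chromosome, counted over tested genes, so that genes not tested may lie between them. The longest runs were of lower genes, with 12 on chromosome M, 10 on chromosome 16 and 8 on chromosome 11. The latter 2, from 89041429 to 89403971 and from 99463982 to 99633639 in mm9, hold keratin-associated protein genes such as Krtap6-5 and Krtap4-1. Most of their other members have only clone or transcript names. Whether the probes tell these neighbours apart was not tested. Decorin (Dcn), lumican (Lum) and epiphycan (Epyc), small leucine-rich proteoglycans of the matrix, stand in a run of 6 higher genes and transcripts on chromosome 10 from 96082071 to 97144315 in mm9 that starts with Btg1. Dcn was at 6.54 and 5.80 in controls and at 7.07 and 6.63 in GHCre mice, a gap of 0.09, and Lum at 3.96 and 2.92 against 4.37 and 4.02, a gap of 0.06. Of 12 small leucine-rich proteoglycans in all, 4 were higher and 1 lower (median 0.56), a list added after the values were seen. Podn, podocan, was the other higher member and Fmod, fibromodulin, the lower one, at -1.05 and -1.80 against -2.18 and -2.17. Ccl2, Ccl7, Ccl11 and Ccl8 form a run of 4 on chromosome 11, and Ifi204, Mndal, Ifi211 and Ifi203 a run of 4 on chromosome 1. Over the genome, the gene next to a higher gene was higher in 17.3% against 15.7% of all genes, and next to a lower gene lower in 22.1% against 19.8%.

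Cell type markers were read beside these results, first those that bear on the sort. Sox2, which marks pituitary stem cells, gave no signal above background on the arrays, whereas Sox9, also of these cells, was at 2.02 and 0.32 in controls and at 2.54 and 1.75 in GHCre mice. Abcg2, a pump of the Hoechst dye, was at 0.69 and -0.26 against 0.80 and -0.09, and Ly6a, which encodes Sca1, at -1.72 and -2.25 against -0.47 and -2.53. These 3 detected genes overlapped between the groups. Of 16 stem and progenitor markers tested 5 were higher and 1 lower (median 0.36), and their summed signal, in multiples of the 75th percentile, was 58.5 and 60.6 against 68.6 and 62.4. Without Klf4, the brightest of them, the sums were 40.0 and 41.8 against 37.2 and 38.4, so the order of the groups turned.

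Of 14 lymphocyte markers 7 were higher and 2 lower (median 1.11), and their summed signal was 44.7 and 42.4 against 79.8 and 81.3, and without Gzma, the brightest, 26.6 and 26.8 against 49.5 and 45.7. Gzma and Gzmb, granzymes of cytotoxic lymphocytes, were higher, Gzma at 4.17 and 3.97 against 4.92 and 5.15. Cd4 and Cd8a, coreceptors of T cells, had differences of -1.16 ± 0.43 and -2.35 ± 0.82 and were both lower, while their other probes differed by 0.18 and -0.21. Of 15 fibroblast and mural cell markers 7 were higher and none lower (median 0.68), with sums of 217 and 146 against 282 and 232, and of 124 and 89.9 against 147 and 133 without Dcn. After 10 days the median of these 15 was -0.53, and 5 had a difference above 0. Pdgfra, a receptor of fibroblasts, was at 1.64 and 1.19 against 2.21 and 2.23. The part of these cells in the higher immune, matrix and contractile genes was not tested.

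Of 13 myeloid markers 4 were higher and 3 lower. With the mean of all probes these counts were 4 and 0, and with normexp and the 75th percentile 4 and 4. The sums of these markers were 238 and 199 against 168 and 172. Itgam, an integrin chain of myeloid cells, made up 75.9% to 81.4% of them, and without it the sums overlapped. Endothelial markers had 3 of 10 higher and erythroid markers 2 of 7, with none lower, and Schwann cell, oligodendrocyte and pituicyte markers 3 of 12 higher and 1 lower. Of 4 platelet markers 1 was higher. Of 8 neutrophil markers 2 were lower, with sums of 239 and 178 against 168 and 143. Csf3r, the receptor of granulocyte colony-stimulating factor, made up 91.3% to 98.2% of these, at 7.85 and 7.40 against 7.37 and 7.03, and without it they overlapped.

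Of 16 markers of other hormone cells 6 were lower and none higher (median -0.54). Their summed signal was 2451 and 2387 against 1703 and 1518, of which Prl made up 85.8% to 90.7%. Without Prl the sums were 285 and 259 against 158 and 216. Prl, prolactin, was at 11.08 and 11.06 against 10.59 and 10.35, a difference of -0.60 that was 0.02 in the series table, and Tbx19, the lineage factor of corticotropes, was at least 3.57-fold lower with GHCre arrays at background. Gh itself was at 5.69 and 3.65 in controls and at 5.46 and 2.2 in GHCre mice, and Pomc, the precursor of corticotropin, at 5.65 and 1.12 against 4.09 and 0.90. Both overlapped, and both were higher in replicate 1 of either group than in replicate 2. Replicates 1 share a slide, as do replicates 2, and on each slide both genes were lower in the GHCre array. Of 8 somatotrope markers 1 was higher and 2 lower. Their summed signal was 183 and 222 against 101.7 and 133, without overlap. Without Dlk1, the brightest, the sums were 65.6 and 46.1 against 54.2 and 23.2, and the groups overlapped. The part of carried-over hormone cells in the lower neuronal, receptor and channel genes was not tested.

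The lone arrays of 10 days took no part in the choice of higher and lower genes, but did in the filter on dim genes, and they carry no replicates. Of the 714 genes higher with a gap over 1 after 3 days, 343 (48.0%) were higher in the GHCre array of 10 days, against 49.9% of all genes. Of the 461 lower genes 272 (59.0%) were lower, against 50.1%. With the control array first, Il6 stood at 2.77 and 3.87, Ccl8 at -4.07 and -1.75 and Foxj1 at -5.49 and -1.91. Oasl1 stood at -1.13 and -1.28, and Hp at 0.27 and -0.60. Among genes given above with a lower bound, P2rx7 and Mx1 differed by 2.35 and 3.42. Adra2a stood at -0.76 and -2.81, Ccr7 at -1.07 and -2.48, Ackr3 at -2.18 and -6.28 and C1qc at -0.76 and -6.19. In these last 4 genes the control array of 10 days was above background and brighter than the GHCre array. In the limma test of the difference between the 10 day and the 3 day effect 0 genes passed, with 824 at an unadjusted p under 0.05, and this test takes its spread from the 3 day arrays alone.

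**Figure D4:**
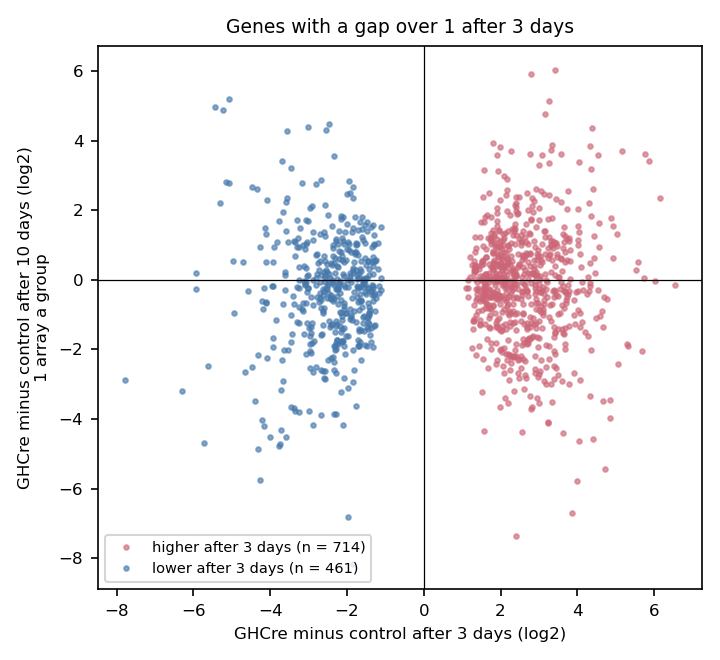
Difference between GHCre and control after 3 days (horizontal axis, log2, means of 2 arrays a group) and after 10 days (vertical axis, log2, 1 array a group) for the 714 higher and 461 lower genes with a gap over 1 after 3 days. The points spread about 0 on the vertical axis on both sides, with 48.0% of the higher genes above it and 59.0% of the lower genes below it.

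Other probes of the same genes were read as a check that shares RNA and arrays with the first. Dim ones were left out, and a counted other probe existed for 136 of the 714 higher and 92 of the 461 lower genes. Where controls are at background, another probe can enter this count through its GHCre arrays alone, which favours a higher mean. For lower genes the reverse holds, so the shares below are not free of this filter. Of 164 other probes of the higher genes with a gap over 1, 128 (78.0%) had a higher mean in GHCre mice, and 73 (44.5%) were higher without overlap, against 9 that were lower without overlap. Of 108 other probes of the lower genes 70 (64.8%) had a lower mean, and 37 (34.3%) were lower without overlap, against 14 that were higher. Over all genes 50.2% of other probes had a higher mean, and 18.8% were higher and 17.4% lower without overlap.

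The shares differed with signal. The share of lower genes went from 6.16% in the dimmest quintile of mean signal to 34.2% in the brightest, and that of higher genes from 10.9% to 16.4%. Genes with a gap over 1 were mostly dim, with 206 higher and 103 lower in the dimmest quintile and 33 and 11 in the brightest. The median GC content of the probes was 41.7% for higher genes and 45% for lower and for the remaining genes. Signal also differed between arrays. The 75th percentile was 186 and 251 against 299 and 298, and the share of probes above background was 53.8% and 63.1% against 64.4% and 61.4%. Across probes Pearson's r was 0.895 between the controls and 0.930 between the GHCre arrays, and from 0.897 to 0.925 between arrays of different groups. Control replicate 1 had the lowest signal and an r of at most 0.910 with any other array, so the controls were no more alike than the groups were, and probes are not independent replicates. The part of signal strength in the calls was not tested.

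**Figure D5:**
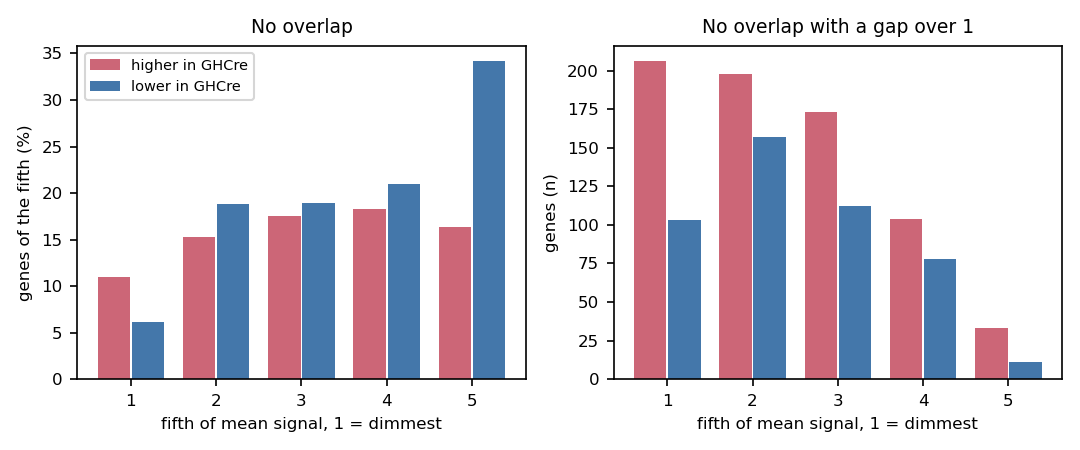
Genes without overlap after 3 days by quintile of mean signal over the 4 arrays, as percent of the quintile (left) and, with a gap over 1, as number of genes (right), red for higher and blue for lower in GHCre mice. The lower share reaches 34.2% in the brightest quintile, and genes with a gap over 1 are fewest there.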

How the data were processed

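RNA of sorted side population cells was measured on 6 one-colour Agilent arrays. The scanner files hold spot intensities, background-subtracted and detrended by Feature Extraction 10.7.3.1, per the file headers. A deposited series table holds log2 values that match quantile-normalized scanner values at a Pearson's r of at least 0.9999, and how the authors made it is not given in the sources used here. The members and lists were chosen with earlier results of these data known. After values were seen, 3 lists were added and 4 family patterns corrected.

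Control spots were left out, as were flagged spots unless all spots of a probe on an array were flagged (32 probe values). Spots of a probe were averaged. Each array was divided by its 75th percentile before log2. Of 39429 probes, 27234 were named through RefSeq by accession, 3576 by symbol and 565 by older symbol, and 8054 kept the name in the file. A gene was represented by its brightest probe and tested where that probe was above background on at least 2 of 6 arrays. limma 3.58.1 in R 4.3.3 was fitted to all 6 arrays in 4 groups, with 2 residual degrees of freedom and Benjamini-Hochberg adjustment over 20923 genes, two-sided. The script was tested on simulated data. Standard errors are those of this fit. With 2 arrays a group, their number limits the precision.

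Where 1 group was at background on both arrays, "at least N-fold" sets the mean of the bright group against the higher of the lowest signal above background and the dim probe's own signal, array by array, in the scaling reported and not as a minimum over alternatives. Named genes were the 15 of largest gap in each direction, the 8 of largest gap in each direction above background on all 4 arrays, up to 4 of largest gap in each list, 9 markers named in every case, and those next to a gap of 1. Not all of them are described. Probe positions are those of the files, in mm9. The alternatives tried were the series table, scaling by quantiles, the normexp correction of background (offset 50), the mean of all probes, other filters, leaving out each array, and slide or replicate number as a block. Titles were used for the groups, since they match the genotype and treatment fields where free-text descriptions differ. Replicates 1 of both groups share a slide, and replicates 2 share another.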

Additional observations from a re-analysis of the deposited data

How the results depend on the processing

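limma called 0 genes under every alternative run, with lowest adjusted p from 0.385 to 1.0. With a replicate block, which is the same fit as the slide block, it called 0, with 1457 at an unadjusted p under 0.05, and the deviations of same-numbered arrays correlated at 0.0868. The numbers of higher and lower genes with a gap over 1 were 197 and 146 under normexp with the 75th percentile, 216 and 115 under normexp with quantile scaling, and 300 and 264 among genes above background on all 4 arrays. Of the 714 and 461 genes, 619 and 461 were still without overlap in the first of these. Leaving out 1 array, which makes non-overlap easier to reach, gave 5835 to 6724 higher and 5993 to 8285 lower genes, and 1586 to 2503 and 1001 to 1922 with a gap over 1. The median of the interleukins was -0.20 and -0.06 under normexp with these scalings, -0.09 with the mean of all probes and -0.13 to 0.22 with 1 array left out. Under normexp with the 75th percentile the median was -0.11 for the solute carriers, -0.12 for TRIM proteins, -0.01 for DNA replication and mitosis and -0.14 for myeloid markers. With 1 array left out the median ran from -0.40 to 0.15 for potassium channels, from -0.01 to 0.30 for TRIM proteins, from -0.05 to 0.63 for myeloid markers, from -0.32 to 0.23 for somatotrope markers and from -0.42 to 0.22 for neutrophil markers. Single arrays also turned the difference of Gh (-2.47 to 0.78), Pomc (-3.15 to 1.37), Abcg2 (-0.33 to 0.62), Hbegf (-0.51 to 0.89) and Ly6a (-0.55 to 1.52), and Prl was at 0.02 in the series table. The cause was not tested. Genes at background in 1 group have only a bound.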
